A study of Mus musculus with 12 samples.

Results

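A set of 10 interleukin receptor and signalling genes was followed through the activation of mouse CD8+ T cells and through exposure to sodium lactate during that activation. The 10 genes, of 13780 in the count table, encode both chains of the interleukin-12 (IL-12) receptor (Il12rb1, Il12rb2), both chains of the IL-18 receptor (Il18r1, Il18rap), the IL-21 receptor (Il21r), the ligand-binding IL-6 receptor (Il6ra), the shared signal-transducing chain gp130 (Il6st), the specific chain of the IL-27 receptor (Il27ra) and the transcription factors STAT3 and STAT4. They were chosen by name, as the rows whose symbol equals one of these, no symbol was repeated, and all 10 passed the filter on low counts. The lowest count of any of them in any library was 29.

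The series holds 12 RNA-seq libraries of CD8+ T cells, 4 in each of 3 groups. The cells were taken from spleens of wild-type C57BL/6J mice by positive selection on magnetic beads. Naive cells were snap-frozen after purification, without stimulation. Media cells were stimulated in plain medium for 72 h by beads coated with antibodies to CD3 and CD28, in the presence of IL-2 at 10 U/ml, and lactate cells were treated alike with 40 mM sodium lactate added for the whole 72 h. The control for lactate was therefore plain medium and not an equal dose of another sodium salt, so that the lactate anion cannot be told apart from the added sodium and osmolality in these libraries. The labels of the activated libraries carry 3 donor tags, and some recur among low and high library numbers. The tags were read separately for low and high numbers, a reading not stated in the labels. This reading gives 5 donors of activated cells, 3 of them with a media and a lactate library. Low and high numbers are called the low and the high run here, although no label names a run. Assigned reads per library ranged from 14726904 to 21478137. CD8+ T cell markers summed to between 1348 and 3219 CPM (counts scaled to the same total in each library) in the naive libraries, 2360 and 2997 in media and 1833 and 2298 in lactate.

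The receptors described here belong to a pair of signalling systems. Receptors of the IL-6, IL-12, IL-21 and IL-27 type have no enzyme activity of their own and carry Janus kinases, which phosphorylate STAT proteins once a ligand brings the chains together; IL-6, IL-21 and IL-27 act largely through STAT3, and IL-12 acts through STAT4. The IL-18 receptor is of the IL-1 receptor family and signals through the adaptor MyD88. In CD8+ T cells, IL-12 and IL-18 are known for driving interferon-gamma production, while IL-6, IL-21 and IL-27 are known for tuning survival, memory formation and the effector programme.

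Lactate exposure was compared first. Transcripts of gp130 (Il6st), of its partner Il27ra and of Stat4 were lower in lactate than in media cells, and none of the 10 genes was called higher. The comparison was made with edgeR's quasi-likelihood test over all tested genes, with calls at a Benjamini-Hochberg adjusted p of at most 0.01. It called 3 of the 10 genes, all 3 lower, where 25.1% of the 13767 tested genes were called, 13.9% higher and 11.1% lower. The median log2 fold change was -0.43 over the 10 genes and -0.0016 over all tested genes. For 7 of the 10 genes the lactate and media libraries did not overlap, against 44.7% of all tested genes. The share of the genes called was thus near the background. Groups without overlap keep their sign in any subset of libraries. For these 7 genes the library runs therefore show only the size of the difference. The log2 difference in the low and the high run was 0.86 and 1.28 for Il12rb1, -0.64 and -0.28 for Il12rb2 and 0.77 and 0.34 for Il18r1. It was -0.74 and -0.98 for Il27ra, -0.52 and -0.26 for Stat3 and -0.67 and -0.75 for Stat4, and Il6st is given with its levels. The high run held 1 media and 2 lactate libraries. The summed CD8+ T cell markers were also lower in every lactate than in every media library. Of the 4 markers, Cd3e and Cd3g, which encode chains of the T cell receptor complex, were lower (log2 fold changes -0.91 and -0.80; edgeR adjusted p = 0.000269 and 0.0091), and Cd8a and Cd8b1 did not pass (-0.15 and 0.29; adjusted p = 0.672 and 0.343). Their part in the differences was not tested. These are bulk libraries, in which fewer cells carrying a transcript and less of it per cell cannot be told apart.

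**Figure D1:**
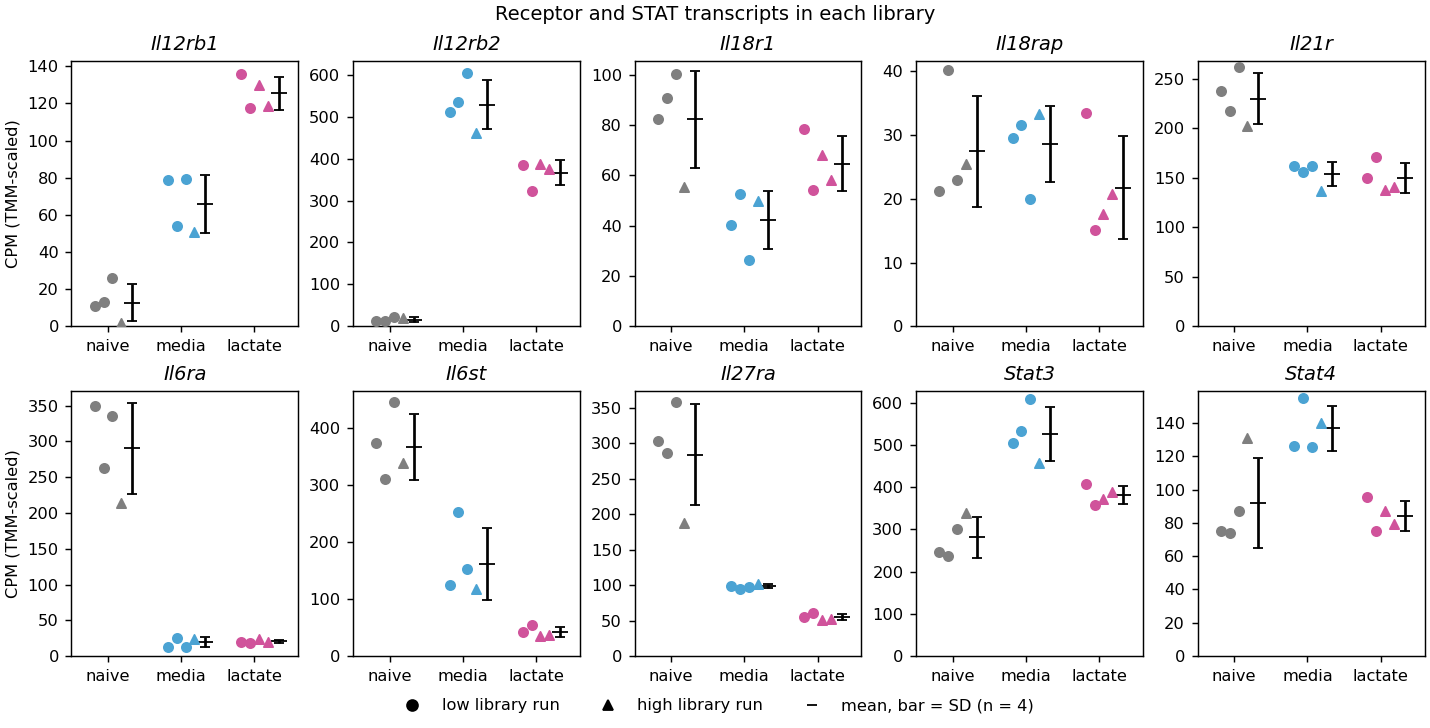
Level of each of the 10 transcripts in CPM (vertical axes, linear, from 0) in the 4 naive, 4 media and 4 lactate libraries. Each point is 1 library, circles are the low and triangles the high library run, and the black bar is the mean with its SD. Il6st lay between 117 and 253 CPM in media and between 35.0 and 54.9 CPM in lactate, while Il21r and Il6ra overlapped between these groups.

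Il6st, which encodes gp130, the chain that the IL-6, IL-27 and several other receptors share to signal, showed the largest fold change of the 10 genes. It stood at 125, 253, 152 and 117 CPM in media 1 to 4 and at 42.3, 54.9, 35.0 and 36.7 CPM in lactate 1 to 4. Every lactate library lay below every media library, and media 2 was the highest of the activated libraries. The change was 3.83-fold, a log2 fold change of -1.94 ± 0.24 (SE, n = 4 per group; edgeR quasi-likelihood test, adjusted p = 0.000126). Within the donors that gave both libraries the log2 difference of lactate from media was -1.56, -1.67 and -1.47. Within the low run the group means differed by -1.81, and within the high run by -1.71.

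Il27ra, the chain that binds IL-27 together with gp130, was lower as well, with little spread in media. Its level was 98.2, 95.1, 97.4 and 102 CPM in media 1 to 4 and 55.5, 60.5, 50.3 and 52.7 CPM in lactate 1 to 4, again without overlap. This was a log2 fold change of -0.84 ± 0.16 (SE, n = 4 per group; edgeR adjusted p = 0.00124), or 1.79-fold. In the 3 donors with both libraries it was -0.82, -0.95 and -0.68. Counts were taken over all exons of a gene, and in GRCm38 Il6st lies at chr13:112464070-112510086 on the plus strand and Il27ra at chr8:84030294-84042589 on the minus strand, with no exon base of Il6st and 0.0572% of those of Il27ra in another gene.

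Il6ra, which binds IL-6 itself, did not pass the test. Its level was 13.2, 25.9, 13.1 and 24.6 CPM in media 1 to 4 and 19.9, 18.8, 23.3 and 20.0 CPM in lactate 1 to 4. The lactate libraries lay inside the range of the media libraries, where media 1 and 3 were low and media 2 and 4 high. Its log2 fold change was 0.10 with a 95% interval of -0.41 to 0.61 (edgeR adjusted p = 0.78). Il21r, whose product signals with the common gamma chain and not with gp130, was the steadiest of the 10 genes between these groups. Its level was 162, 155, 162 and 136 CPM in media and 150, 171, 138 and 140 CPM in lactate, with overlapping groups, and its log2 fold change was -0.04 with a 95% interval of -0.27 to 0.19 (edgeR adjusted p = 0.806).

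Of the transcription factors, Stat4, which the IL-12 receptor activates, was lower in lactate. It stood at 126, 155, 126 and 140 CPM in media 1 to 4 and at 95.5, 75.3, 87.0 and 79.2 CPM in lactate 1 to 4, so that the groups did not overlap. The log2 fold change was -0.70 ± 0.17 (SE, n = 4 per group; edgeR adjusted p = 0.00592), or 1.62-fold. In GRCm38, Stat4 spans chr1:51987148-52107189 on the plus strand, and 26.7% of its exon bases also lie in Gm28177, a gene model on the same strand for which no values were analysed here.

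Stat3, the main factor downstream of IL-6 and IL-21, just missed the threshold. Its level was 504, 532, 610 and 457 CPM in media 1 to 4 and 407, 357, 373 and 388 CPM in lactate 1 to 4. The lactate libraries were all below the media libraries. Stat3 lies at chr11:100885098-100939540 on the minus strand of GRCm38, with 0.756% of its exon bases in Stat5a on the other strand. The log2 fold change of -0.46 ± 0.13 (SE, n = 4 per group) had an edgeR adjusted p of 0.011, where 0.01 was asked, and its adjusted p ranged from 0.00105 (DESeq2) to 0.106 (donor block over all libraries) over 25 other fits and settings, 14 of which did not call it. It was 0.00318 when the media and lactate libraries were fitted alone and 0.0203 with the donor block in those 8. It passed without naive 2, naive 4 or media 4, at an adjusted p of 0.00853, 0.00321 and 0.00896.

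Libraries were paired by the donor tags as read here, and a term for the donor changed calls. With the donor as a replicate block over all 12 libraries, 1 of the 10 genes was called instead of 3: Il6st remained at an edgeR adjusted p of 0.00178, while Il27ra was at 0.0339 and Stat4 at 0.0791, with log2 fold changes of -1.57, -0.82 and -0.65. That fit called 992 genes in all, against 3451 without the block. With the same block on the 8 activated libraries alone, a fit added after the data were seen, the calls were 5: Il6st, Il27ra and Stat4 lower (adjusted p = 0.000216, 0.00069 and 0.0024) and Il12rb1 and Il18r1 higher (adjusted p = 0.00175 and 0.00764). The total over all genes for that fit is not given here, so the 5 are not set against a background. Over the 25 alternatives that total lay between 992 and 5461. The call of Stat4 was also lost without any 1 of media 1 to 4 or lactate 2 to 4, at an edgeR adjusted p between 0.0103 and 0.0216. Its log2 fold change lay between -0.76 and -0.63 when leaving out 1 library.

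**Figure D2:**
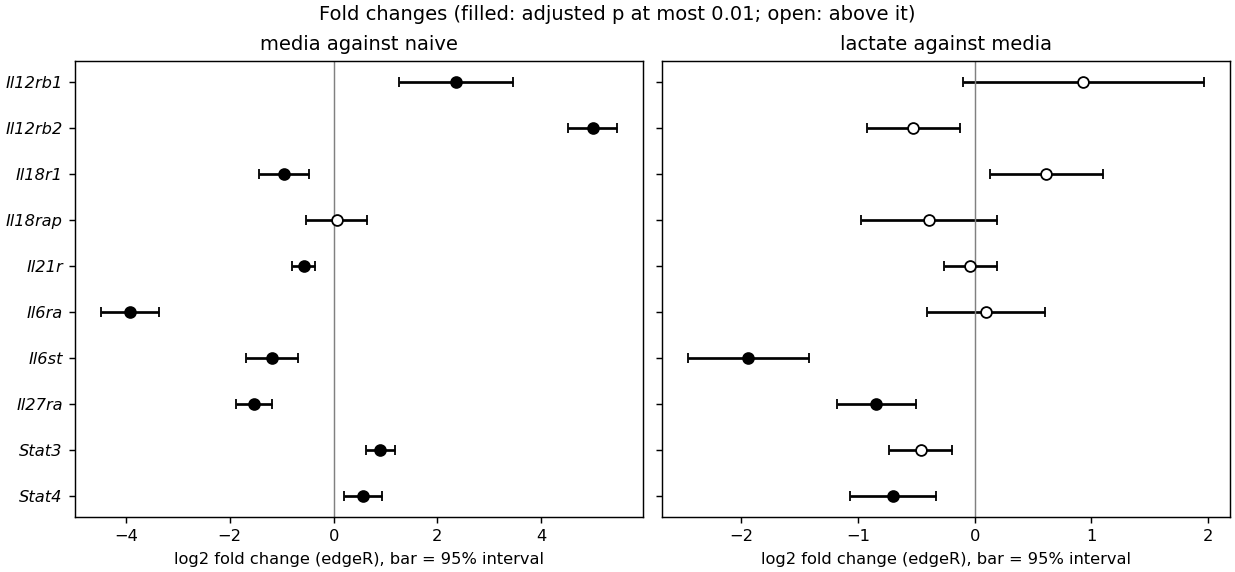
Log2 fold change of each gene from the edgeR fit (horizontal axis) for media against naive (left) and lactate against media (right), with bars for the 95% interval. Filled points have an adjusted p of at most 0.01: 9 of 10 genes on the left, and on the right Il6st at -1.94, Il27ra at -0.84 and Stat4 at -0.70.

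The IL-12 receptor chains lay on opposite sides of their media levels, and neither passed the test. Il12rb1, the chain also used by the IL-23 receptor, stood at 79.0, 54.2, 79.5 and 50.9 CPM in media 1 to 4 and at 136, 118, 130 and 119 CPM in lactate 1 to 4. Every lactate library was above every media library. The gene lies at chr8:70808449-70821424 on the plus strand of GRCm38 and overlaps no other exon. It had a log2 fold change of 0.93 ± 0.48 (SE, n = 4 per group; edgeR adjusted p = 0.14). Naive 4 held Il12rb1 at 1.62 CPM where naive 1 to 3 held 10.9, 13.0 and 25.9 CPM, and the fit shares 1 estimate of the spread over all groups: without naive 4 the same contrast had an adjusted p of 0.00601, and with media and lactate libraries alone 0.000761.

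Il12rb2, the chain that recruits STAT4, was the most abundant of the 10 transcripts per length in activated cells and lay on the other side. It stood at 512, 535, 603 and 462 CPM in media 1 to 4 and at 384, 322, 387 and 374 CPM in lactate 1 to 4, without overlap. The log2 fold change was -0.53 ± 0.18 (SE, n = 4 per group; edgeR adjusted p = 0.0363, and 0.00172 with media and lactate libraries alone). The gene lies at chr6:67291318-67376188 on the minus strand of GRCm38, and 40.0% of its exon bases overlap Serbp1 on the opposite strand. Whether reads were counted by strand is not given in the sources used here, so that reads of the shared bases cannot be assigned with certainty. Serbp1, an mRNA-binding protein gene, had the opposite sign, with a mean of 730 CPM in media and 1126 CPM in lactate (log2 fold change 0.63, edgeR adjusted p = 0.000169), and stood at 450 CPM in naive cells, where Il12rb2 was at 16.5 CPM.

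The IL-18 receptor genes are neighbours, Il18r1 at chr1:40465552-40500854 and Il18rap 14507 bases further at chr1:40515362-40551705, both on the plus strand of GRCm38, and neither passed the test. Il18r1, the ligand-binding chain, was at 40.4, 52.4, 26.6 and 49.8 CPM in media 1 to 4 and at 78.4, 54.3, 68.0 and 58.3 CPM in lactate 1 to 4. The groups did not overlap, though media 2 and lactate 2 lay close together. The log2 fold change of 0.61 ± 0.22 (SE, n = 4 per group) did not pass (edgeR adjusted p = 0.0435). Il18rap, the accessory chain needed for signalling, was at 29.5, 31.5, 20.0 and 33.4 CPM in media and at 33.4, 15.1, 17.7 and 20.8 CPM in lactate, with overlapping groups and a log2 fold change of -0.39 with a 95% interval of -0.97 to 0.19 (edgeR adjusted p = 0.272).

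Because a receptor needs both of its chains, the log2 ratio of counts per kilobase between the chains was taken in each library. The ratio of Il12rb2 to Il12rb1 was 2.81, 3.42, 3.04 and 3.30 in media 1 to 4 and 1.61, 1.56, 1.69 and 1.77 in lactate 1 to 4. The mean was 3.14 ± 0.27 in media and 1.66 ± 0.09 in lactate (SD, n = 4 per group), a difference of -1.48, and the groups did not overlap (two-sided exact permutation test, p = 0.0286, adjusted over 15 tests 0.0536). The ratio of Il18rap to Il18r1 was -1.03 ± 0.15 in media and -2.11 ± 0.33 in lactate (SD, n = 4 per group), a difference of -1.08 with the same exact p and adjusted p and no overlap.

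Ratios to Il6st, the denominator in both pairs and itself called lower, were higher in lactate. Il6ra to Il6st was -2.72 ± 0.57 in media and -0.66 ± 0.40 in lactate, a difference of 2.06, and Il27ra to Il6st was 1.02 ± 0.54 in media and 2.06 ± 0.18 in lactate, a difference of 1.05 (SD, n = 4 per group; both without overlap, exact permutation p = 0.0286, adjusted 0.0536). The ratio of Stat4 to Stat3 was -0.64 ± 0.26 in media and -0.88 ± 0.10 in lactate (SD, n = 4 per group), with overlapping groups (exact permutation p = 0.143, adjusted 0.179). With 4 libraries against 4 there are 70 arrangements, 0.0286 is the smallest two-sided p they allow, and no ratio passed 0.05 after adjustment with all libraries. Without media 3, that of Stat4 to Stat3 differed by -0.35 (exact permutation test, adjusted p = 0.0476). This adjusted p depends on how many tests tie at the smallest exact p, and it came with leaving out that library. It is therefore not read as a difference.

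**Figure D3:**
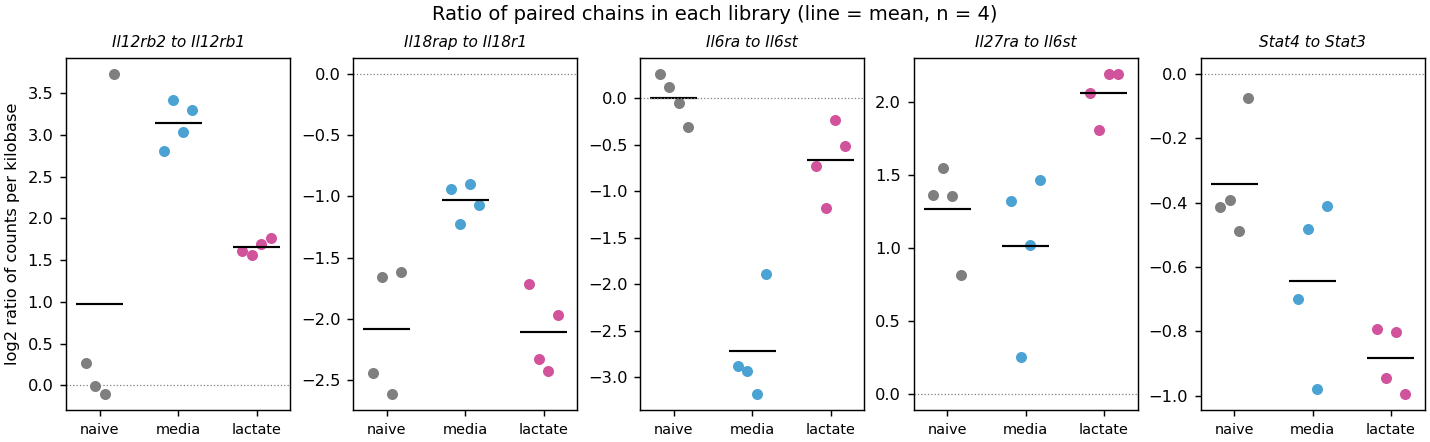
Log2 ratio of counts per kilobase (vertical axes) between paired chains, and between Stat4 and Stat3, with 1 point per library and a line at the mean of each group. The ratio of Il12rb2 to Il12rb1 averaged 3.14 in media and 1.66 in lactate, and naive 4 stood at 3.73 where the other naive libraries lay near 0.

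The stretches before the transcription starts are shown for Il6st and Stat4, which were called lower in lactate. Those of Il12rb2 and Il18r1, not called in that comparison, are shown because they hold a motif described for STAT proteins. Each is the 250 bases before a RefSeq start in GRCm38.p6, 5′ to 3′ on the strand of the gene, and capitals mark matches of the STAT motif.
Il6st, chr13:112463820-112464069, plus strand: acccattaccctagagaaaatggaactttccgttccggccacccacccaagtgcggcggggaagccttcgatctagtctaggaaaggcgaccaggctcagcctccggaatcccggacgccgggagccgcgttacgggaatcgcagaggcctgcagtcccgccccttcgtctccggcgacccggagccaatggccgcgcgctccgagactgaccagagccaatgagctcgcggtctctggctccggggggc
Stat4, chr1:51986898-51987147, plus strand: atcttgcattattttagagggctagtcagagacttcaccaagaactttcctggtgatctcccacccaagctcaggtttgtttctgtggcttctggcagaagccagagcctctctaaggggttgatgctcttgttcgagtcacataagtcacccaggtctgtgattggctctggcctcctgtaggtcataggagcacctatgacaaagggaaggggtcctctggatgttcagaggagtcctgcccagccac
Il12rb2, chr6:67376189-67376438, minus strand: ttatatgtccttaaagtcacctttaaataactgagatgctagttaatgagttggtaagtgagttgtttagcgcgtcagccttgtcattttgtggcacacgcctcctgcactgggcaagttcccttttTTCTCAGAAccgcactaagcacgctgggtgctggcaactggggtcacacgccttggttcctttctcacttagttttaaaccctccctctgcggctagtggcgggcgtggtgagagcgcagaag
Il18r1, an inner start, chr1:40465756-40466005, plus strand: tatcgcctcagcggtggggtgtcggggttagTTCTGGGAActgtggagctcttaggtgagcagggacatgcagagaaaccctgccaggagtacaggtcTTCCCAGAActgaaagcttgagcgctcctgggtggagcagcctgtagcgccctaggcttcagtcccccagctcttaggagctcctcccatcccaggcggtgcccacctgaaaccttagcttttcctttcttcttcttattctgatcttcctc

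Of the 10 genes, 8 had such windows, 11 in all, and Il12rb1 and Il27ra had none. A further Stat4 window, without a match of the STAT motif, is not shown. The STAT motif was searched as TTCNNNGAA, which reads the same on both strands. It was found in 2 of the 11 windows and in 7.02% of 32851 windows of all genes. The match in Il12rb2 began 123 bases before the start, and those in the inner window of Il18r1 began 219 and 152 bases before it, while the other Il18r1 windows held none. The core motif of hypoxia-inducible factors, ACGTG on either strand, was present in 1 of the 11 windows, that of Il6ra, where the matches of both strands overlap, and in 16.6% of all windows. The AP-1 motif, TGANTCA on either strand, was present in none of the 11 and in 6.75% of all. A match describes the letters of a window only.

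Most of the 10 genes differed between activated and naive libraries. Both IL-12 receptor chains and Stat3 were higher in media and in lactate than in naive cells, and Il6ra, Il6st, Il27ra and Il21r were lower. Media against naive cells, 9 of the 10 genes were called, 4 higher and 5 lower, where 57.5% of all tested genes were called, 28.5% higher and 29.0% lower. The median log2 fold change was -0.26 over the 10 genes and -0.03 over all tested genes. For lactate against naive cells, 7 were called, 3 higher and 4 lower, against 65.0% of all tested genes, 33.0% higher and 32.0% lower. Both comparisons use the same naive libraries, so their values are given side by side and not set against each other. The high run held 1 naive library. Of the called genes, only Stat4 in media overlapped its naive libraries, and its sign was the same within each run. For the others the lack of overlap fixed the sign within each run in advance. The smallest differences in the high run were 0.09 for Stat4 and -0.15 for Il18r1 between media and naive, where the low run gave 0.78 and -1.25.

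The naive libraries held markers of other splenic cells at far higher levels than the activated ones. B cell markers summed to between 392 and 954 CPM in naive libraries, 8.14 and 14.7 CPM in media and 5.23 and 7.44 CPM in lactate. Myeloid markers summed to between 438 and 1500 CPM in naive libraries and to at most 1.04 CPM in media and 0.53 CPM in lactate. Dendritic cell markers ranged from 61.6 to 146 CPM in naive libraries and reached 0.60 CPM in media, with Xcr1 and Siglech at 0, and 2.82 CPM in lactate, with Xcr1, Clec9a and Siglech at 0. For the 2 red cell markers listed, the naive range was 53.8 to 2091 CPM, and the highest activated library had 1.28 CPM. CD4+ T cell markers summed to between 12.1 and 30.5 CPM and NK cell markers to between 4.58 and 10.99 CPM in naive libraries, against at most 1.70 and 0.82 CPM in activated ones. Some of the 10 genes, Il6ra and Il6st among them, are expressed by such cells as well, and the part of these cells in each difference from naive libraries was not tested.

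**Figure D4:**
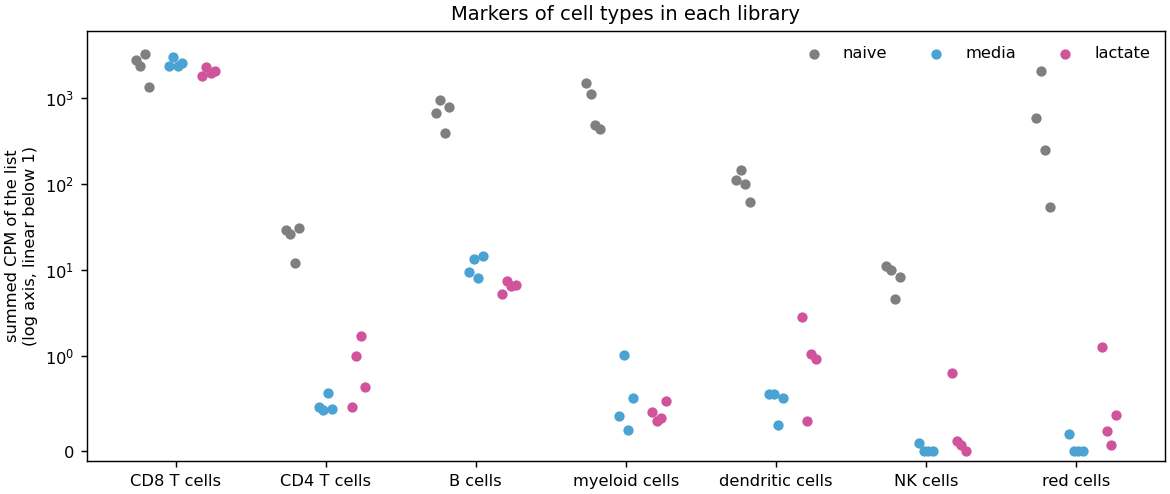
Summed CPM of marker genes of each cell type (vertical axis, logarithmic and linear below 1) in each library, by group. The naive libraries carry B cell markers at 392 to 954 CPM and myeloid markers at 438 to 1500 CPM, far above the activated libraries, while CD8+ T cell markers sum to 1348 to 3219 CPM in naive, 2360 to 2997 CPM in media and 1833 to 2298 CPM in lactate libraries.

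Among the receptors, Il12rb2 differed most from naive cells. Naive 1 to 4 held 12.1, 11.9, 22.3 and 19.9 CPM, far below all activated libraries, and the log2 fold change was 4.99 ± 0.22 in media and 4.47 ± 0.21 in lactate (SE, n = 4 per group; edgeR adjusted p = 3.77e-09 and 5.63e-09). Il12rb1 rose by 2.36 ± 0.51 in media and 3.29 ± 0.52 in lactate on the log2 scale (SE, n = 4 per group; edgeR adjusted p = 0.00113 and 9e-05). Both chains were therefore above every naive library in all 8 activated libraries.

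Il6ra showed the deepest fall. It was at 349, 263, 335 and 213 CPM in naive 1 to 4 and between 13.1 and 25.9 CPM in the activated libraries, a log2 fold change of -3.92 ± 0.26 in media and -3.82 ± 0.25 in lactate (SE, n = 4 per group; edgeR adjusted p = 6.12e-08 and 5.32e-08). Il6st was at 374, 311, 446 and 338 CPM in naive 1 to 4, which lay above all activated libraries, and its log2 fold change was -1.18 ± 0.23 in media and -3.12 ± 0.25 in lactate (SE, n = 4 per group; edgeR adjusted p = 0.00061 and 2.48e-07). Il27ra was at 303, 286, 358 and 187 CPM in naive 1 to 4, and fell by 1.53 in media and by 2.37 in lactate on the log2 scale (edgeR adjusted p = 2.79e-06 and 6.39e-08). For Il6st and Il27ra the order of the groups was thus naive, media, lactate, with no overlap between neighbours, whereas Il6ra was already at its low level in media.

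Il21r was moderately lower after activation, from 237, 218, 261 and 202 CPM in naive 1 to 4, with log2 fold changes of -0.58 ± 0.10 in media and -0.62 ± 0.10 in lactate (SE, n = 4 per group; edgeR adjusted p = 0.00033 and 0.000162). Il18r1 was at 82.6, 91.0, 100 and 55.4 CPM in naive 1 to 4. It fell by 0.96 on the log2 scale in media (edgeR adjusted p = 0.00197), and the lactate libraries overlapped the naive ones, with a log2 fold change of -0.35 and a 95% interval of -0.83 to 0.13 (edgeR adjusted p = 0.171). Il18rap passed in neither comparison, with log2 fold changes of 0.06 and -0.33 (edgeR adjusted p = 0.862 and 0.275) and naive values of 21.3, 40.3, 23.0 and 25.4 CPM.

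Stat3 was at 246, 238, 301 and 339 CPM in naive 1 to 4, below every activated library. Its log2 fold change was 0.90 ± 0.13 in media and 0.44 ± 0.13 in lactate (SE, n = 4 per group; edgeR adjusted p = 3.89e-05 and 0.0066). The call for lactate was lost in 12 of 23 other ways of fitting. Stat4 was at 75.1, 73.8, 87.4 and 131 CPM in naive 1 to 4, where naive 4, the library of the high run, lay inside the media range. Its log2 fold change was 0.57 ± 0.17 in media (SE, n = 4 per group; edgeR adjusted p = 0.00866), a call lost in 15 of 23 other fits, and -0.12 in lactate with a 95% interval of -0.49 to 0.24 (edgeR adjusted p = 0.518).

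Levels were compared between genes in TPM, a count divided by gene length and scaled to 1 total per library. In naive cells the order of mean TPM ran from Il27ra (276 TPM) and Il21r (236 TPM), whose ranges overlapped, over Il6ra (114 TPM), Il6st (113 TPM), Stat3 (101 TPM), Stat4 (81.5 TPM) and Il18r1 (58.0 TPM), each overlapping the next, to Il12rb2 (14.9 TPM), Il18rap (13.8 TPM) and Il12rb1 (10.6 TPM), which overlapped too. In media cells Il12rb2 led at 483 TPM, apart from Stat3 (192 TPM), Il21r (161 TPM) and Stat4 (122 TPM), and Il6ra was last at 7.66 TPM. In lactate cells Il12rb2 again led at 305 TPM, and Il12rb1, rank 6 in media at 55.9 TPM, had rank 4 at 96.7 TPM. Il6st had rank 7 in media at 50.7 TPM and rank 8 in lactate at 12.1 TPM, where it overlapped Il18rap at 10.3 TPM. In media Il12rb1, Il6st and Il18r1 each overlapped the next, and in lactate Il21r overlapped Stat3 and Il27ra overlapped Il18r1.

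Patterns over the 12 libraries were compared by the root mean square difference of centred log2 CPM, which is 0 for an identical pattern. Of all pairs among the 10 genes, Stat3 and Stat4 were the closest at 0.276, followed by Il18r1 and Il21r at 0.436. Over all tested genes, the closest to Il6st were Carns1 (0.244) and Rasgrp2 (0.251), to Il27ra Armc7 (0.158) and Smarca2 (0.176), to Stat3 Ccdc66 (0.113) and Ccnk (0.12), and to Stat4 Mtmr6 (0.114) and Arel1 (0.136). Il12rb2 was closest to Lmtk3 (0.293) and Ctla4 (0.328), the latter an inhibitory receptor of activated T cells. The closest to Il12rb1 were Trim46 (0.499) and Tnp2 (0.523), to Il18r1 Fam122a (0.192) and Parp3 (0.25), and to Il18rap Reck (0.253) and Gm10060 (0.276). Il21r lay nearest to Ppp1r18 (0.1) and Ice2 (0.104), and Il6ra to Gm13919 (0.297) and Gm42778 (0.32).

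The other genes of these pathways were taken as 67 genes in 7 lists, of which 62 were tested, with Socs3 in 2 lists. Named are those called at 2-fold or more together with Jak1, Jak2, Tyk2 and Myd88, and Map3k7, Stat2, Pias1, Pias3, Socs3, Il4ra and Il12b were added after their values were seen. Between lactate and media, 11 of the 62 were called higher and 8 lower, 17.7% and 12.9% of the 62 beside 13.9% and 11.1% of all tested genes, and 9 and 3 of these differed at least 2-fold. The median log2 fold change was 0.87 for ligands, 0.13 for other receptors, -0.01 for kinases and adaptors, -0.38 for other STAT genes, 0.25 for inhibitors, 0.40 for STAT3 targets and 0.50 for targets of STAT4 and IL-18, beside -0.0016 over all tested genes. Of 9 kinases and adaptors, 1 was called higher and 2 lower. The 2 were Jak1 and Jak2, kinases carried by gp130, with log2 fold changes of -0.62 ± 0.12 and -0.85 ± 0.14 (SE, n = 4 per group; edgeR adjusted p = 0.00197 and 0.000632). Jak2 was at 140, 189, 151 and 144 CPM in media 1 to 4 and at 79.2, 79.9, 89.4 and 98.1 CPM in lactate 1 to 4, without overlap. Tyk2, the kinase carried by Il12rb1, showed -0.42 (edgeR adjusted p = 0.0126), the adaptor Myd88 of the IL-18 receptor 0.24 (adjusted p = 0.214), and Map3k7, a kinase downstream of MyD88, was called higher at 0.59 (adjusted p = 0.00225).

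Of 5 other STAT genes, Stat2, which serves type I interferon receptors, was the 1 called, at -0.73 (edgeR adjusted p = 0.00135), and none was called higher. Of 10 inhibitors, 1 was called higher and 2 lower. Of all tested genes, 13.9% were called higher and 11.1% lower. Socs1, which blocks Janus kinases, was at 41.7, 17.5, 35.6 and 68.9 CPM in media 1 to 4 and at 127, 127, 99.8 and 94.8 CPM in lactate 1 to 4, and rose by 1.45 ± 0.33 on the log2 scale (SE, n = 4 per group; edgeR adjusted p = 0.00444). Pias1 and Pias3, which act on STAT proteins in the nucleus, were lower (log2 fold changes -0.51 and -0.50; edgeR adjusted p = 0.00252 and 0.00488). Socs3, the inhibitor that binds gp130, showed 0.46 with overlapping groups (adjusted p = 0.431).

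Among 13 other receptors tested, of 15 listed, 4 were called higher and 1 lower, where 13.9% and 11.1% of all tested genes were. Il23r, the chain that pairs with Il12rb1 to bind IL-23, was at 0.19, 0.11, 0 and 0.063 CPM in media 1 to 4 and at 0.67, 0.52, 1.56 and 1.73 CPM in lactate 1 to 4. It was thus at very low counts in media and higher in every lactate library (log2 fold change 3.48 ± 0.81, SE, n = 4 per group; edgeR adjusted p = 0.00482). Il1rl1, the IL-33 receptor, ends 136 bases before Il18r1, and Il1rl2 precedes it in the same cluster of IL-1 receptor genes. Il1rl1 was at 0.28, 0, 0.28 and 0 CPM in media and at 3.33, 1.41, 1.2 and 0.53 CPM in lactate (log2 fold change 3.41, edgeR adjusted p = 0.00504), and Il1rl2 rose by 1.83 on the log2 scale (adjusted p = 0.000113). Further along, Il1r2 showed 0.49 (adjusted p = 0.659), and Il1r1 had at most 3 counts in any media library. The others called were Il4ra, a receptor chain for IL-4, at 0.51 (adjusted p = 0.000789) and Il11ra1, the IL-11 receptor that signals with gp130, at -1.26 (adjusted p = 0.00178).

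**Figure D5:**
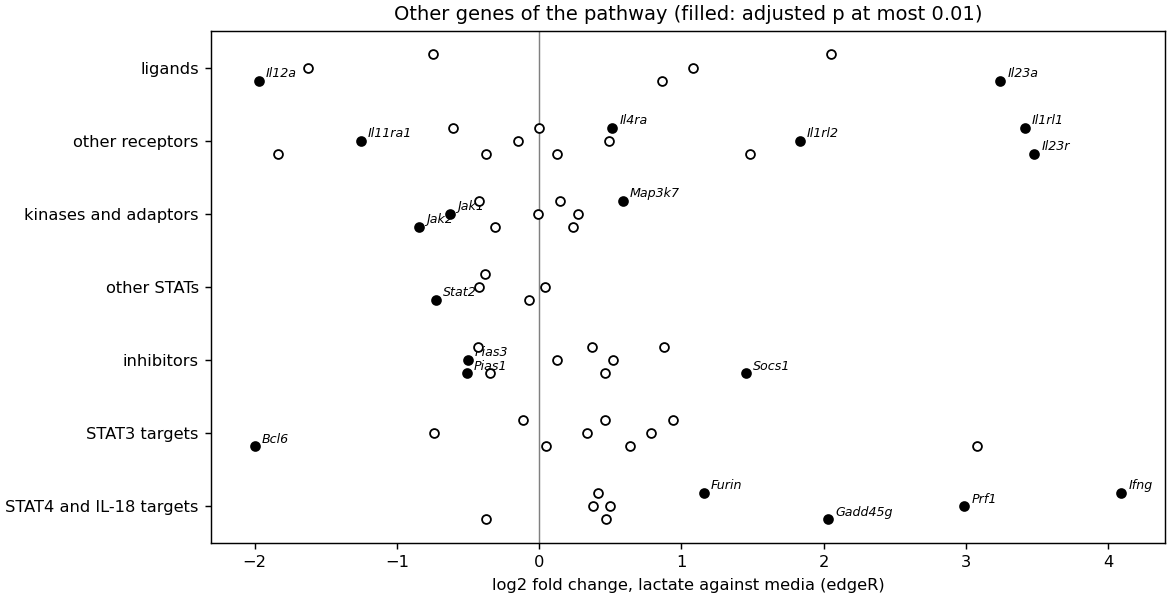
Log2 fold change of the 62 tested pathway genes for lactate against media (horizontal axis), by list (rows; height within a row only separates points). Filled points are called at an adjusted p of at most 0.01 and named: 11 lie right of 0 and 8 left of it.

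Of 7 ligand genes tested, Il23a, the specific subunit of IL-23, rose and Il12a, the specific subunit of IL-12, fell. Il23a was at 0.23, 0.11, 0.22 and 0.13 CPM in media 1 to 4 and at 2.15, 1.26, 2.48 and 1.01 CPM in lactate 1 to 4 (log2 fold change 3.24, edgeR adjusted p = 0.000261). Il12a was at 0.45 to 0.82 CPM in media and 0.071 to 0.19 CPM in lactate (log2 fold change -1.97, adjusted p = 0.00191). Both genes were at low levels throughout, and Il12b, the subunit that IL-12 and IL-23 share, had at most 3 counts in any activated library. Il27, Il21 and Il6 were not among the genes tested.

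Of 10 genes listed as targets of STAT3, 1 was called, Bcl6, a repressor that opposes effector differentiation, at -2.0 ± 0.44 (log2 fold change with SE, n = 4 per group; edgeR adjusted p = 0.00339). Of 9 genes listed as targets of STAT4 and IL-18 signalling, 4 were called higher and none lower, where 13.9% and 11.1% of all tested genes were called at the same adjusted p of at most 0.01. Gadd45g, an activator of stress kinases, was at 10.7, 8.51, 10.8 and 32.1 CPM in media 1 to 4 and at 43.8, 44.4, 85.7 and 79.3 CPM in lactate 1 to 4 (log2 fold change 2.03, adjusted p = 0.00363). Furin, a protease induced by IL-12, showed 1.16 (adjusted p = 0.00589), and Ifng and Prf1 showed 4.09 and 2.99 (adjusted p = 0.00239 and 8.01e-05). Between media and naive cells, 6 of the 62 were called higher and 26 lower, where 28.5% and 29.0% of all tested genes were. Between lactate and naive cells 11 were called higher and 26 lower, where 33.0% and 32.0% of all were. These counts stand beside the markers of other cells given above, whose part was not tested.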

How the data were processed

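CD8+ T cell RNA was sequenced in 12 libraries. Per the paper's methods, the authors converted base calls with bcl2fastq (2.20.0.422), aligned reads to GRCm38 with STAR (2.7.5b), removed PCR duplicates and assigned reads to Ensembl genes with featureCounts. The library kit is stranded, and whether reads were counted by strand is not given in the sources used here. The deposited table holds the authors' raw count of each gene and its length, limited to expressed genes. Sample labels gave groups, title numbers, donor tags and library numbers. Low and high library numbers were treated as separate runs, which no label states.

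Counts were fitted with edgeR 4.0.16 (R 4.3.3): TMM scaling, at least 1 CPM in at least 3 libraries (13767 of 13780 genes kept), 3 groups, quasi-likelihood test, Benjamini-Hochberg adjustment over all tested genes, with calls at 0.01 or below. The scripts were tested on simulated data. Chain ratios used exact permutation tests. Alternatives were other scalings, filters, thresholds and tools (DESeq2 1.42.0, limma 3.58.1), blocks, a term for the library run and leaving out each library. Coordinates and overlaps came from GENCODE M21 and sequences from RefSeq on GRCm38.p6.

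The members, the pathway lists, the marker lists and the tests were chosen with earlier results of these data known. Besides the 10 genes, those of the pathway lists called in lactate against media at 2-fold or more, Jak1, Jak2, Tyk2, Myd88 and the neighbours in the IL-1 receptor cluster were named. A gene that this rule also names is not reported here. For each of the 10 genes the 2 genes with the closest pattern were named. Hbb-bs, a red cell marker, was not analysed here. Deviations from the group means correlated at 0.374, 0.211 and 0.553 (Pearson, across genes) for the media and lactate libraries of 1 donor, and at 0.374, 0.297, 0.0038 and 0.553 for those sharing a title number. The pairs at 0.374 and 0.553 are the same libraries under both readings. The remaining donor pair, at 0.211, lay below title number 2, at 0.297, so these correlations do not decide between the readings. Libraries were paired by the donor tags of the labels and not by the title numbers. Assigned reads ranged from 14726904 to 21478137 per library.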

Additional observations from a re-analysis of the deposited data

Results flagged for a closer look

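In the group of naive libraries, the log2 ratio of Il12rb2 to Il12rb1 was 3.73 in naive 4 and 0.26, -0.01 and -0.10 in naive 1 to 3. The gap from naive 4 to the nearest other library was 0.905 of the range of the group, above Dixon's 95% critical value for 4 samples. Naive 4 is the naive library of the high run, and its Il12rb1 level was 1.62 CPM, where naive 1 to 3 held 10.9 to 25.9 CPM. It differed beyond this ratio: its CD8+ T cell markers summed to 1348 CPM, where naive 1 to 3 held 2781, 2356 and 3219 CPM. Its B cell markers, at 797 CPM, lay inside the range of naive 1 to 3. Of 45 groups of 4 libraries examined in this way, the naive group for this ratio was the 1 past that value, and chance alone passes about 1 in 20.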

How the results depend on the processing

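Every one of the 25 alternatives to the lactate comparison kept the direction and call of Il6st (log2 fold change -2.09 to -1.56). Il27ra lost its call in 1, the donor block, and Stat4 in 9. The number of the 10 genes called was 6 with the compared groups alone, 1 with the donor as replicate block, 5 with that block on activated libraries alone (added after seeing the data), 6 at an adjusted p of 0.05 and 2 to 5 when leaving out 1 library. The 5 came without naive 4. Over all genes, calls were 992 with the donor block, 5461 at 0.05 and 2252 (without media 2) to 4845 (without naive 4) when leaving out 1 library. Totals for the compared groups alone and for the block on activated libraries alone are not given here. Their 6 and 5 are therefore not set against a background. The title numbers as replicate block gave 3256 calls, and the adjusted p of Stat4 became 0.0104. Il21r for lactate against media changed sign to 0.0041 and 0.0093 with the donor blocks and 0.017 with a term for the library run, and Il6ra ranged from -0.049 to 0.27 when leaving out 1 library. For media against naive, Il18rap was -0.0059 with DESeq2 size factors, -0.0060 in DESeq2 and -0.097 to 0.22 leaving out 1 library. For lactate against naive, Stat4 was -0.31 to 0.089 leaving out 1 library. None of these values was called in either direction at an edgeR or DESeq2 adjusted p of 0.01. In the high run alone the difference in the ratio of Il6ra to Il6st was 1.52 and in that of Stat4 to Stat3 -0.49. When leaving out 1 library, the latter was -0.35 (without media 3, exact permutation test, adjusted p = 0.0476) to -0.16. That adjusted p depends on how many tests tie at the smallest exact p. The causes were not tested. The lowest count of the 10 genes in any library was 29, that of Il12rb1 in naive 4, and the part of depth was not tested.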
